A study of Mus musculus with 6 samples.

Results

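Genes of the T cell receptor complex and T cell markers were followed through messenger RNA of mouse bone marrow B220+ cells. The 10 genes were taken by name, as rows of the deposited table with the symbols Cd3d, Cd3e, Cd3g, Cd4, Cd8a, Cd8b1, Lck, Cd2, Trbc1 and Trbc2, and all 10 had 1 row each among 27761 rows. The series holds 3 libraries whose genotype label is PELI2 knockout, titled PELI2-CKO, and 3 libraries labelled WT, all from B220+ marrow cells. The strain, age, the driver of the knockout and the number of animals behind each library are not given in the sources used here, so p-values measure the spread between these libraries, which may be technical. Levels are in FPKM, fragments per kilobase of transcript scaled to the mapped reads, a unit per length in which genes can be set beside each other.

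The T cell receptor is a pair of variable chains, alpha with beta or gamma with delta, that binds antigen and cannot signal by itself. The CD3 chains and the zeta chain, encoded by Cd247, join it at the membrane and carry the tyrosines that the kinase Lck phosphorylates. CD4 and CD8 are the co-receptors that bind MHC class II and class I molecules and bring Lck to the complex, and CD2 is an adhesion receptor of lymphocytes. B220 is a form of CD45 used to take B-lineage cells from marrow, where T cells are a minor population. Outside the T lineage, mouse plasmacytoid dendritic cells carry B220 and CD4, and mouse B-lineage cells carry CD2.

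The steps between low values placed the depth between 16600750 and 18033750 reads per library. Peli2, an E3 ubiquitin ligase gene and the target named by the labels, stood at 3.07, 2.70 and 2.47 FPKM in PELI2-CKO and at 2.03, 2.54 and 1.99 FPKM in WT, so its mean was the higher one under the knockout label (exact permutation test over libraries, two-sided, p = 0.2, where 3 against 3 cannot go below 0.1). Directions below therefore follow the label, and the value per gene does not separate exons. Markers of the sorted lineage were present in every library, with summed FPKM of 10 B-lineage genes between 1600 and 1644 in the libraries labelled PELI2-CKO and between 1864 and 2304 in WT.

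The 10 genes covered a wide range of levels in these cells. Cd2 had the highest mean over the 6 libraries, 59.1 FPKM, and lay at percentile 96.9 of all rows. Cd4 followed at 24.0 FPKM and Lck at 14.5 FPKM. The CD3 chains were at the other end, with means of 2.24 FPKM for Cd3d, 0.972 FPKM for Cd3g and 0.735 FPKM for Cd3e, the gene at percentile 50.8. In the order of levels, Cd2, Cd4, Lck, Trbc1, Trbc2, Cd8b1, Cd8a, Cd3d, Cd3g and Cd3e, the ranges over libraries of neighbours overlapped for Lck with Trbc1, Trbc1 with Trbc2, Cd8a with Cd3d and Cd3g with Cd3e. The ranges of the other neighbours were separate. Within each library Cd4 stood at 24.9 to 41.7 times the FPKM of Cd3e, and Cd2 at 59.2 to 158 times.

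**Figure D1:**
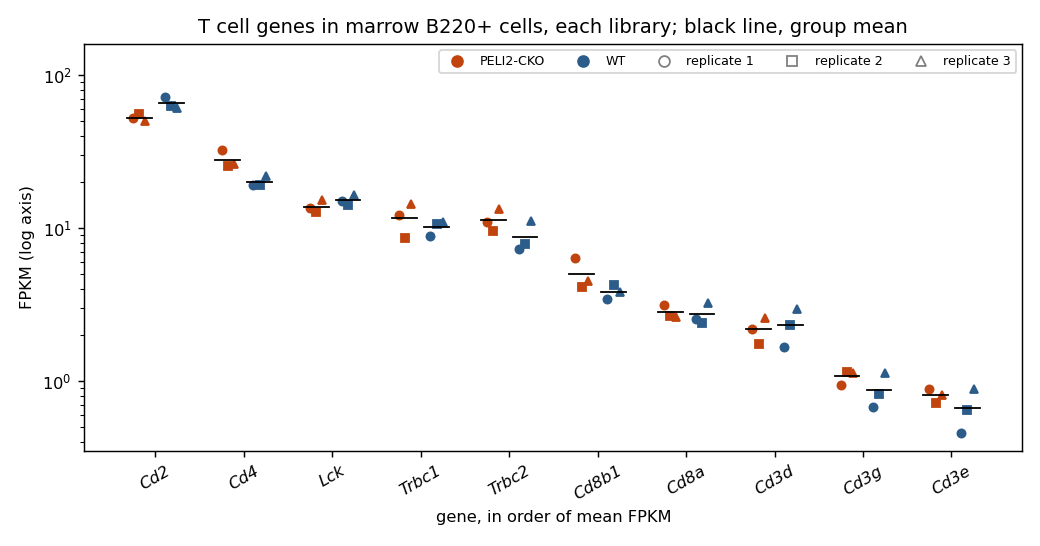
FPKM (log axis) of the 10 T cell genes in each of the 3 PELI2-CKO libraries (orange) and the 3 WT libraries (blue), with a black line at each group mean. Cd4 points of the groups lie apart with PELI2-CKO above, Cd2 points lie apart with PELI2-CKO below, and the groups of the other 8 genes overlap.

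The comparison of the genotypes asked which of these transcripts differ with the PELI2 knockout label. None of the 9 genes that entered the fit over all 12953 genes passed the threshold of an adjusted p under 0.05 (limma on log2(FPKM + 1), two-sided, Benjamini-Hochberg over all genes). Over all genes that rule called 3 genes, 0.0232%, as higher and 0 genes, 0%, as lower in the libraries labelled PELI2-CKO. At an unadjusted p under 0.05, Cd4 was the 1 gene of the 9 on the higher side and Cd2 the 1 gene on the lower side, against 9.2% and 8.88% of all genes tested, or 1192 and 1150 genes. Groups lay apart for the same pair of genes, against 11.5% of all genes tested with PELI2-CKO above and 14.3% with PELI2-CKO below. With 9 genes, 1 in each direction is close to these shares. The median log2 fold change of the 9 genes was 0.15, beside -0.01 for all genes tested, and 6 of the 9 had a higher mean in the libraries labelled PELI2-CKO, beside 46.4% of all genes. The median of the 9 was 0.072 without WT replicate 1, 0.074 without PELI2-CKO replicate 3 and 0.22 without WT replicate 3.

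**Figure D2:**
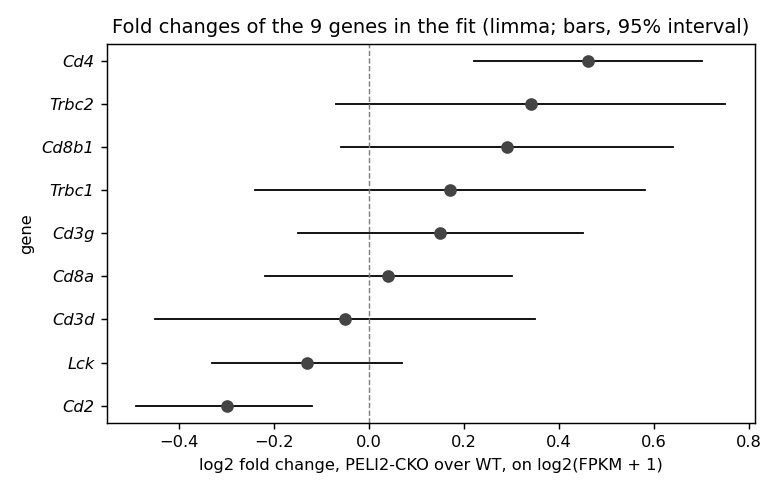
Log2 fold change, PELI2-CKO over WT, on the log2(FPKM + 1) scale for the 9 genes in the fit, with 95% intervals from limma, not adjusted for the number of genes. The intervals of Cd4 and Cd2 leave out 0 on opposite sides, and those of the other 7 genes hold it.

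The CD3 gamma, delta and epsilon chains are parts of the T cell receptor complex. Their genes lie side by side on chromosome 9 of GRCm38, Cd3g at 44969572 to 44980431, Cd3d at 44981786 to 44987339 and Cd3e at 44998740 to 45009627, and Cd3g and Cd3d are read in opposite directions from starts 1355 bases apart. Their promoters are shown because the genes are neighbours. All 3 were lowest in WT replicate 1, as given below. So were Trac, Trbc2 and Cd247 on other chromosomes, so this was not particular to the neighbours. The sequences are RefSeq's of GRCm38.p6, 250 bases before to 50 after the start, on the strand of the gene: chr9:44980382-44980681 on the minus strand for Cd3g, chr9:44981536-44981835 on the plus strand for Cd3d and chr9:45009562-45009861 on the minus strand for Cd3e. Capitals mark matches, on either strand, to letters searched for factors of blood cells.
Cd3g: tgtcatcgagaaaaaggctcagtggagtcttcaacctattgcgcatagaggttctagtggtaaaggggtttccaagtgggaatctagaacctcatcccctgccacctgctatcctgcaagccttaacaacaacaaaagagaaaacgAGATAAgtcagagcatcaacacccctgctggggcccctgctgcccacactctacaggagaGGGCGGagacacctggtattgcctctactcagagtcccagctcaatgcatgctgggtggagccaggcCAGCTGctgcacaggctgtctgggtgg
Cd3d: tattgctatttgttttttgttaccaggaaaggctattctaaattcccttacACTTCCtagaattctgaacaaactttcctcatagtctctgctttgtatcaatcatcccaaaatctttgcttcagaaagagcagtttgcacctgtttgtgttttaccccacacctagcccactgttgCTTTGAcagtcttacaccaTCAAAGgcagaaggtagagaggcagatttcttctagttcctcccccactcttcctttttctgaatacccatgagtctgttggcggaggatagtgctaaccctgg
Cd3e: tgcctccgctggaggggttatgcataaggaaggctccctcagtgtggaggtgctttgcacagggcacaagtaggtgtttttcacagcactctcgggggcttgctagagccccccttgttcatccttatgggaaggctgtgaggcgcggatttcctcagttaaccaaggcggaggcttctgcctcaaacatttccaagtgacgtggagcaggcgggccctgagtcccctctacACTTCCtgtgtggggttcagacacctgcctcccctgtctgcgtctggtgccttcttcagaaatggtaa
The searched letters were GGAAGT for ETS factors, TGTGGT for RUNX, AGATAA for GATA factors, CAGCTG for an E-box, CTTTGA for TCF and LEF, GGGCGG for SP and KLF factors and TATAAA for the box that binds TBP, and no matches overlapped in these windows. Cd3d held ETS letters and a pair of TCF and LEF matches, Cd3e held ETS letters, and Cd3g held GATA, SP and KLF, and E-box letters. Of 32851 promoter windows of this length, 23.8% held the ETS letters, 16.0% those of TCF and LEF, 11.2% those of GATA, 35.7% those of SP and KLF, 16.3% the E-box, 16.8% those of RUNX and 13.6% those of TBP. The matches describe the letters and are not binding sites measured here. Of the 10 genes, 5 matched an entry by symbol.

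Cd3e, the epsilon chain, was listed at 0.893, 0.719 and 0.814 FPKM in libraries labelled PELI2-CKO, against 0.456, 0.649 and 0.881 FPKM in WT. WT replicate 1 was the lowest of all, and the groups overlapped. No library reached 1 FPKM, so the gene was outside the fit, and the means differed by 0.147 FPKM (exact permutation test, two-sided, p = 0.3). The difference was 0.0437 FPKM without WT replicate 1 and 0.256 FPKM without WT replicate 3. If every read came from the longest coding transcript of 1462 bases, these values are about 24, 18 and 21 reads in the libraries labelled PELI2-CKO and 12, 16 and 22 reads in WT. The exact Poisson 95% interval, which covers counting error only, ran from 15.4 to 35.7 reads in PELI2-CKO replicate 1 and from 6.2 to 21 reads in WT replicate 1, so that the intervals of the highest and the lowest library overlapped.

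Cd3g, the gamma chain, stood at 0.946, 1.15 and 1.12 FPKM in libraries labelled PELI2-CKO and at 0.673, 0.828 and 1.12 FPKM in WT. Its lowest value was again in WT replicate 1, and WT replicate 3 lay within the range of the knockout-labelled libraries. The log2 fold change was 0.15 ± 0.13 (SE, n = 3 each; limma adjusted p = 0.561), and the gene entered the fit with 3 libraries at 1 FPKM or more, 2 of them labelled PELI2-CKO. It was 0.072 without WT replicate 1 and 0.24 without WT replicate 3. Cd3d, the delta chain, stood at 2.19, 1.74 and 2.59 FPKM in libraries labelled PELI2-CKO and at 1.68, 2.32 and 2.94 FPKM in WT. Both extremes of Cd3d were in WT, its log2 fold change was -0.05 with a 95% interval from -0.45 to 0.35 (limma, adjusted p = 0.892), and the sign turned to 0.082 without WT replicate 3 and to 0.049 without PELI2-CKO replicate 2. Among WT libraries, replicate 1 was the lowest and replicate 3 the highest for each of the 3 chains. Among the libraries labelled PELI2-CKO, replicate 2 was the lowest for Cd3d and Cd3e and the highest for Cd3g.

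The chains also kept an order among themselves. Cd3d exceeded Cd3g in each library, by 2.32, 1.52 and 2.32 times in the libraries labelled PELI2-CKO and by 2.49, 2.80 and 2.63 times in WT. Cd3d exceeded Cd3e by 2.45, 2.43 and 3.18 times in the libraries labelled PELI2-CKO and by 3.68, 3.58 and 3.34 times in WT, and the groups did not overlap in either ratio. These were among 14 ratios chosen after the values were seen. Both rest on few reads of Cd3e or Cd3g, and their differences were not tested. Of the 14, the ratio of Cd4 to Cd8a also lay apart, and the groups overlapped in the rest. For the levels of single genes, 11.5% of all genes tested lay apart with PELI2-CKO above and 14.3% with PELI2-CKO below.

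Trbc1 and Trbc2 encode the alternative constant regions of the receptor beta chain, on chromosome 6 at 41538218 to 41539881 and 41546730 to 41548352. They are near copies, 95.6% identical over 518 coding bases with 23 differences. A stretch of 90 coding bases, positions 400 to 489 counted from the first base of the constant region, is shown because most differences fall there, 14 of them, in capitals. The bases are those of GENCODE M21 transcripts (GRCm38), both on the plus strand.
Trbc1: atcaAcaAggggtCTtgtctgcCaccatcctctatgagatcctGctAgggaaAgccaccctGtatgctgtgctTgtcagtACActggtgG
Trbc2: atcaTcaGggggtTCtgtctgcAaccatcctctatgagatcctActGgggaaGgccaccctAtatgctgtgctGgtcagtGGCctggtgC
The longest identical run was 259 bases, longer than a read of 50 bases. Of all 50-base windows of the longest coding transcript, 41.1% for Trbc1 and 44.0% for Trbc2 also occurred in the other gene, so the split of reads between them is uncertain. The same share was 6.2% for Cd3e, with the gene Gm48719, and 6.3% for Cd8b1, and at most 0.3% for the other 6 genes.

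Trbc1 stood at 12.2, 8.61 and 14.3 FPKM in libraries labelled PELI2-CKO and at 8.89, 10.6 and 10.9 FPKM in WT. Trbc2 stood at 10.9, 9.58 and 13.4 FPKM in libraries labelled PELI2-CKO and at 7.26, 7.91 and 11.1 FPKM in WT. In both genes the highest library was PELI2-CKO replicate 3, and the groups overlapped. Their log2 fold changes were 0.17 ± 0.17 for Trbc1 and 0.34 ± 0.17 for Trbc2 (SE, n = 3 each; limma adjusted p = 0.639 and 0.348). Trbc1 was at 0.019 without PELI2-CKO replicate 3, at 0.083 without WT replicate 1 and at 0.35 without PELI2-CKO replicate 2, and Trbc2 ranged from 0.22 without PELI2-CKO replicate 3 to 0.51 without WT replicate 3. The sum of both genes, which does not depend on the split as each gene does, was 23.1, 18.2 and 27.7 FPKM in the libraries labelled PELI2-CKO and 16.1, 18.5 and 22.1 FPKM in WT, and these groups overlapped as well.

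The constant regions of the other receptor chains were at lower levels. Trac, of the alpha chain, stood at 4.43, 5.27 and 6.04 FPKM in libraries labelled PELI2-CKO and at 4.16, 4.82 and 5.83 FPKM in WT, with overlapping groups (limma adjusted p = 0.798). Trbc2 was 1.82 to 2.47 times Trac in the libraries labelled PELI2-CKO and 1.64 to 1.91 times Trac in WT. The gamma constant regions Tcrg-C1, Tcrg-C2 and Tcrg-C4 averaged 1.63 ± 0.45, 1.36 ± 0.43 and 1.41 ± 0.11 FPKM in the libraries labelled PELI2-CKO and 1.25 ± 0.51, 1.63 ± 0.68 and 1.5 ± 0.75 FPKM in WT (SD, n = 3 each). Trdc, of the delta chain, stayed under the filter at 0.5, 0.713 and 0.831 FPKM in libraries labelled PELI2-CKO and 0.321, 0.716 and 0.975 FPKM in WT. Of the 4 tested constant regions of this list 0 passed in either direction over all genes or at an unadjusted p under 0.05 (limma), and their median log2 fold change was 0.03, with -0.12 without WT replicate 1.

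**Figure D3:**
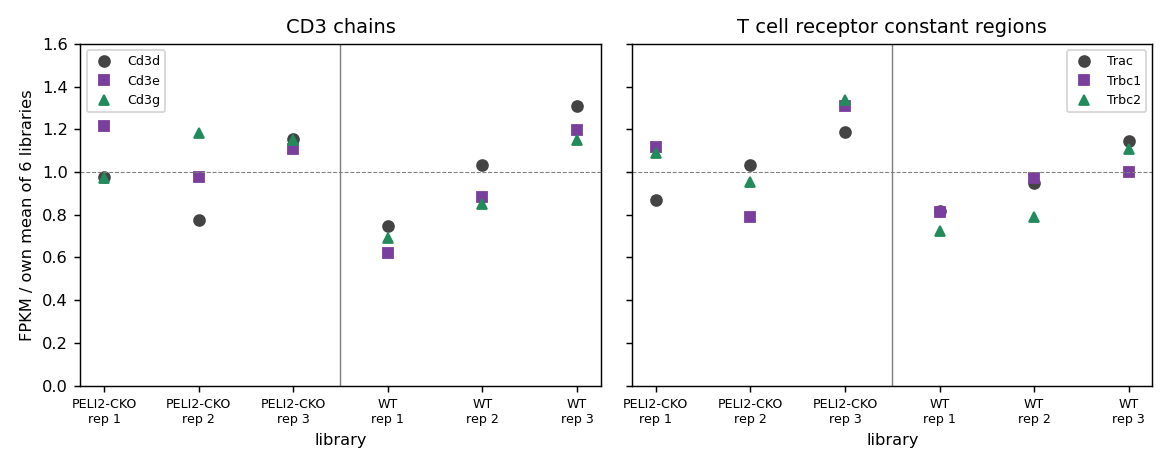
FPKM of each gene divided by its own mean over the 6 libraries, for the CD3 chains (left) and the constant regions Trac, Trbc1 and Trbc2 (right), by library. WT replicate 1 is the lowest WT library and WT replicate 3 the highest for all 6 genes, and the PELI2-CKO libraries lie within the spread of the WT libraries for Cd3d.

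Cd4, the co-receptor for MHC class II, lies on chromosome 6 at 124864692 to 124888221. Its level was 32.2, 25.6 and 26.3 FPKM in the libraries labelled PELI2-CKO and 19.0, 19.2 and 22.0 FPKM in WT. All 3 knockout-labelled libraries were above all 3 WT libraries, and PELI2-CKO replicate 1 was the highest. Cd4 averaged 28.0 ± 3.6 FPKM under the knockout label and 20.0 ± 1.7 FPKM in WT (SD, n = 3 each), a ratio of 1.4. The log2 fold change of 0.46 had a 95% interval from 0.22 to 0.70, and the gene missed the threshold over all genes (limma, adjusted p = 0.147, and 0.121 to 0.366 under the other settings tried).

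Markers of plasmacytoid dendritic cells, which carry CD4 without being T cells, were present in every library. Of 12 plasmacytoid dendritic cell genes tested, 10 had a higher mean in the libraries labelled PELI2-CKO, with a median log2 fold change of 0.31 over the list. At an unadjusted p under 0.05, 8 genes were higher and 0 lower (limma), beside 9.2% and 8.88% of all genes tested. Groups lay apart with PELI2-CKO above for 8 genes, beside 11.5% of all genes tested, and with PELI2-CKO below for 1 gene, beside 14.3%. That gene was Spib, a factor that B cells use too, at 370, 373 and 340 FPKM under the knockout label and 555, 409 and 399 FPKM in WT (log2 fold change -0.32, limma adjusted p = 0.283). The other gene with a lower mean was Ly6d, which early B cells also carry, with a log2 fold change of -0.17. Both were singled out after their values were seen. The summed FPKM of all 12 genes, of which Ly6d, Spib and Bst2 had the highest levels, was 1476 to 1652 in the libraries labelled PELI2-CKO and 1452 to 1652 in WT. None of the 12 was at 0. Siglech, a receptor that defines these cells in mice, stood at 114, 102 and 111 FPKM in libraries labelled PELI2-CKO, against 74.8, 92.7 and 73.0 FPKM in WT. Divided by Siglech, Cd4 was 0.281, 0.251 and 0.237 in the libraries labelled PELI2-CKO and 0.254, 0.207 and 0.301 in WT, where the groups overlapped. Divided by the geometric mean of all 12 genes, Cd4 was still apart, at 0.493, 0.452 and 0.443 in the libraries labelled PELI2-CKO and 0.385, 0.366 and 0.436 in WT. These ratios were chosen after the values were seen, and the part of these cells in the level of Cd4 was not tested. In a bulk sample, a change in the number of cells of a type and a change in RNA per cell cannot be told apart.

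Conventional dendritic cells, some of which carry CD4 in mice, and monocytes also had markers with mostly higher means. Of the 10 genes of the first list, Zbtb46, Xcr1, Itgae and Batf3 were under the filter and 6 were tested. Of these 6, 5 had a higher mean in the libraries labelled PELI2-CKO, each at an unadjusted p under 0.05 (limma). The other, Dpp4, was lower at that threshold. Over all genes tested 9.2% were higher and 8.88% lower at it. The median log2 fold change of the 6 was 0.37. All 10 genes summed to 80.3 to 91.8 FPKM in the libraries labelled PELI2-CKO and 75.4 to 78.0 FPKM in WT. All 10 tested genes of the monocyte and macrophage list had a higher mean, 6 of them at an unadjusted p under 0.05, with a median of 0.41 and summed FPKM of 1055 to 1312 in the libraries labelled PELI2-CKO and 710 to 990 in WT. The median of the monocyte and macrophage list was 0.30 without WT replicate 1 and 0.49 without WT replicate 3. Neither list had a member called over all genes, nor a member at 0 in all libraries. Against the geometric mean of the tested genes of either list, Cd4 overlapped between the groups. It was at 1.48, 1.2 and 0.996 times the monocyte genes in the libraries labelled PELI2-CKO and 1.46, 1.10 and 1.12 times in WT. Both cell types in general lack B220, yet transcripts of both lists were present in every library. Whether these cells account for any of the level of Cd4 was not tested.

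Cd8a and Cd8b1 encode the co-receptor for MHC class I, and lie on chromosome 6 at 71373427 to 71379173 and 71322788 to 71337494. Cd8a stood at 3.16, 2.68 and 2.63 FPKM in libraries labelled PELI2-CKO and at 2.56, 2.40 and 3.24 FPKM in WT. The groups overlapped nearly in full, and the log2 fold change of 0.04 had a 95% interval from -0.22 to 0.30 (limma, adjusted p = 0.874). It turned to -0.015 after rescaling to a common total, to -0.023 without PELI2-CKO replicate 1 and to -0.026 without WT replicate 2. Cd8b1 stood at 6.33, 4.11 and 4.48 FPKM in libraries labelled PELI2-CKO and at 3.43, 4.26 and 3.83 FPKM in WT. PELI2-CKO replicate 1 stood above the other 5 libraries, and without it the log2 fold change of 0.29 (limma, adjusted p = 0.348) became 0.13. Cd8b1 exceeded Cd8a in every library, by 2, 1.54 and 1.7 times in the libraries labelled PELI2-CKO and 1.34, 1.78 and 1.18 times in WT. The ratio of Cd4 to Cd8a was 10.2, 9.55 and 10 in the libraries labelled PELI2-CKO and 7.43, 7.99 and 6.79 in WT, and these groups lay apart, with the same limits as for the other ratios.

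Lck, the kinase held by the co-receptors, lies on chromosome 4 at 129548344 to 129573641. It stood at 13.5, 12.7 and 15.3 FPKM in libraries labelled PELI2-CKO and at 15.0, 14.1 and 16.4 FPKM in WT. The groups overlapped, with PELI2-CKO replicate 3 above a pair of WT libraries, and the log2 fold change was -0.13 with a 95% interval from -0.33 to 0.07 (limma, adjusted p = 0.457). The fold change was -0.073 without PELI2-CKO replicate 2, -0.075 without WT replicate 3 and -0.20 without PELI2-CKO replicate 3. In level, Lck was 15.1 to 33.0 times Cd3e over the 6 libraries.

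Cd2, the adhesion receptor, lies on chromosome 3 at 101275899 to 101287939. Its level was 52.8, 55.6 and 49.9 FPKM in the libraries labelled PELI2-CKO and 72.1, 62.7 and 61.3 FPKM in WT. Each knockout-labelled library was below each WT library, and WT replicate 1 was the highest. Cd2 averaged 52.8 ± 2.9 FPKM under the knockout label and 65.4 ± 5.9 FPKM in WT (SD, n = 3 each), a ratio of 0.81. The log2 fold change of -0.30 had a 95% interval from -0.49 to -0.12, and the gene missed the threshold over all genes (limma, adjusted p = 0.166, and 0.137 to 0.371 under the other settings tried).

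Most B-lineage markers had, like Cd2, lower means in the libraries labelled PELI2-CKO. Of 10 tested genes, 9 had a lower mean in the libraries labelled PELI2-CKO, with a median log2 fold change of -0.34 over the list, and none was at 0. At an unadjusted p under 0.05, 7 of the 10 were lower, beside 8.88% of all genes tested, and 0 were called over all genes (limma). The list median was -0.23 without WT replicate 1 and -0.40 without WT replicate 3. Divided by the geometric mean of the 10 genes, Cd2 was 0.528, 0.562 and 0.5 in the libraries labelled PELI2-CKO and 0.553, 0.522 and 0.545 in WT. The groups overlapped in this ratio, which was chosen after the values of Cd2 were seen. Whether the B-lineage cells account for the level of Cd2 was not tested.

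**Figure D4:**
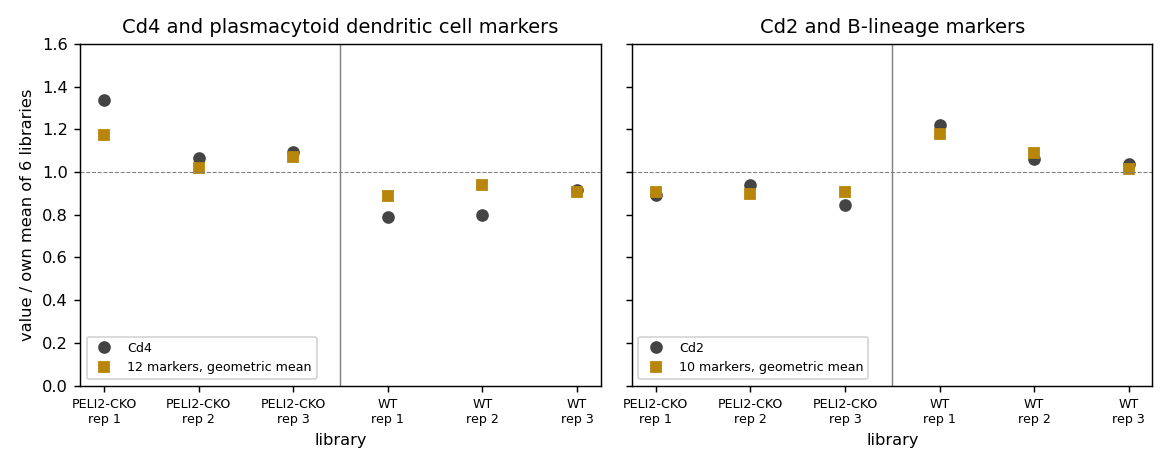
Cd4 beside the geometric mean of 12 plasmacytoid dendritic cell markers (left) and Cd2 beside that of 10 B-lineage markers (right), each divided by its own mean over the 6 libraries. Cd4 and the plasmacytoid dendritic cell markers are above 1 in the PELI2-CKO libraries and below 1 in the WT libraries. Cd2 and the B-lineage markers are below 1 in the PELI2-CKO libraries and above 1 in the WT libraries. The genes were set beside these lists after the values were seen, and the cell source of either gene was not tested.

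Genes that act next to the receptor were divided in direction. Of 20 listed genes of proximal receptor signalling 14 were tested, 7 with a higher and 7 with a lower mean in the libraries labelled PELI2-CKO, with 0 called over all genes (limma). At an unadjusted p under 0.05 Fyn was higher, and Rasgrp1 and Csk were lower, beside 9.2% of all genes tested higher and 8.88% lower. Cd247, the zeta chain and part of the receptor complex, was outside the fit at 0.963, 0.803 and 0.893 FPKM in libraries labelled PELI2-CKO and 0.625, 0.700 and 0.881 FPKM in WT. It was chosen after its values were seen, and its groups overlapped. Rasgrp1, an exchange factor for Ras, averaged 17.6 ± 0.96 FPKM in the libraries labelled PELI2-CKO and 21.7 ± 0.38 FPKM in WT, and Csk, the kinase that holds Lck in check, 116 ± 4.2 FPKM under the knockout label and 134 ± 11 FPKM in WT (SD, n = 3 each; limma adjusted p = 0.14 and 0.236). Fyn, the kinase most like Lck in T cells, averaged 46.1 ± 3.4 FPKM in the libraries labelled PELI2-CKO and 40.1 ± 3.2 FPKM in WT (limma adjusted p = 0.259). Both Fyn and Csk are also used by B cells.

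Surface receptors of T cells had a median log2 fold change of 0.18 over 13 tested of 16, with 10 higher and 3 lower means, and 0 called over all genes (limma). At an unadjusted p under 0.05 there was 1 gene on the higher side and 2 on the lower, beside 9.2% and 8.88% of all genes tested. Cd7, a surface protein of T cells, NK cells and other lymphoid cells, stood at 61.5, 54.0 and 54.4 FPKM in libraries labelled PELI2-CKO, against 38.2, 45.0 and 37.0 FPKM in WT, with groups apart (limma adjusted p = 0.14). On the lower side, Il7r, the interleukin-7 receptor of T and early B cells, averaged 39.4 ± 2.9 FPKM in the libraries labelled PELI2-CKO and 48.4 ± 5.1 FPKM in WT, and S1pr1, the receptor that guides lymphocytes out of tissues, 57.7 ± 2.7 FPKM under the knockout label and 74.7 ± 7.7 FPKM in WT (SD, n = 3 each; limma adjusted p = 0.206 and 0.147). The list median was 0.083 without PELI2-CKO replicate 3 and 0.016 with a filter of 5 FPKM.

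Transcription factors of the T lineage divided as well. Of 10 listed factors 6 were tested. Gata3, Tox and Foxp3 were under the filter, and Bcl11b was not analysed here. Of the 6 tested, 3 were higher and 3 lower in mean, and 0 were called over all genes. At an unadjusted p under 0.05 there were 2 in each direction (limma). Lef1, a factor of early T and early B cells with the smallest p of the list, was at 5.34, 5.27 and 5.49 FPKM under the knockout label, against 8.09, 6.59 and 8.80 FPKM in WT, with groups apart (log2 fold change -0.46, limma adjusted p = 0.142). Zbtb7b, the factor of CD4 T cell choice, averaged 11.2 ± 0.67 FPKM in the libraries labelled PELI2-CKO and 8.95 ± 0.72 FPKM in WT, and Ikzf3, a lymphocyte factor, 41.4 ± 2.0 FPKM under the knockout label and 53.9 ± 5.9 FPKM in WT (SD, n = 3 each; limma adjusted p = 0.16 and 0.153). Of 8 listed genes of early T cells and of receptor gene rearrangement, several of which early B cells share, 7 were tested. Ptcra was under the filter. The 7 tested genes had a median of -0.23, with 2 higher and 5 lower means and 0 called over all genes (limma). At an unadjusted p under 0.05 Notch3 was higher, and Rag1 and Dtx1, a ubiquitin ligase of the Notch pathway, were lower. Over all genes tested the shares at that threshold were 9.2% higher and 8.88% lower. The list median was -0.072 without WT replicate 3. Rag1, part of the recombinase, stood at 59.8, 68.3 and 49.1 FPKM in libraries labelled PELI2-CKO, against 119, 82.4 and 70.9 FPKM in WT, with groups apart (limma adjusted p = 0.228). Notch3, a receptor of early T cells, averaged 2.16 ± 0.32 FPKM in the libraries labelled PELI2-CKO and 1.27 ± 0.18 FPKM in WT (SD, n = 3 each; limma adjusted p = 0.153).

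Markers of NK and cytotoxic cells, which share Cd2, Lck and the zeta chain with T cells, had a median log2 fold change of 0.07 over 12 tested genes, 9 of them with a higher mean in the libraries labelled PELI2-CKO. Of these 0 were called over all genes (limma), and the median was -0.042 without PELI2-CKO replicate 3. At an unadjusted p under 0.05, 1 gene was on the higher side and 0 on the lower (limma), beside 9.2% and 8.88% of all genes tested. That gene was Nkg7, a granule protein of cytotoxic cells, at 44.6, 42.9 and 49.5 FPKM in libraries labelled PELI2-CKO, against 24.4, 33.0 and 33.4 FPKM in WT. The list summed to 119 to 166 FPKM in the libraries labelled PELI2-CKO and 103 to 131 FPKM in WT, and none of its genes was at 0. All 10 granulocyte markers had a higher mean in the libraries labelled PELI2-CKO, 9 of them at an unadjusted p under 0.05, with a median of 0.52. So had all 10 erythroid markers, 5 of them at that threshold, with a median of 0.43. Over all genes tested 9.2% were higher at that threshold (limma). Without WT replicate 1 the medians were 0.37 for granulocytes and 0.29 for erythroid cells. Without WT replicate 2 they were 0.61 and 0.54. The granulocyte and erythroid lists summed to 11661 to 13610 FPKM and 14068 to 17921 FPKM in the libraries labelled PELI2-CKO, against 7272 to 10133 FPKM and 9285 to 13502 FPKM in WT. In neither list was a gene called over all genes or at 0, and their part in the levels of the T cell genes was not tested.

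**Figure D5:**
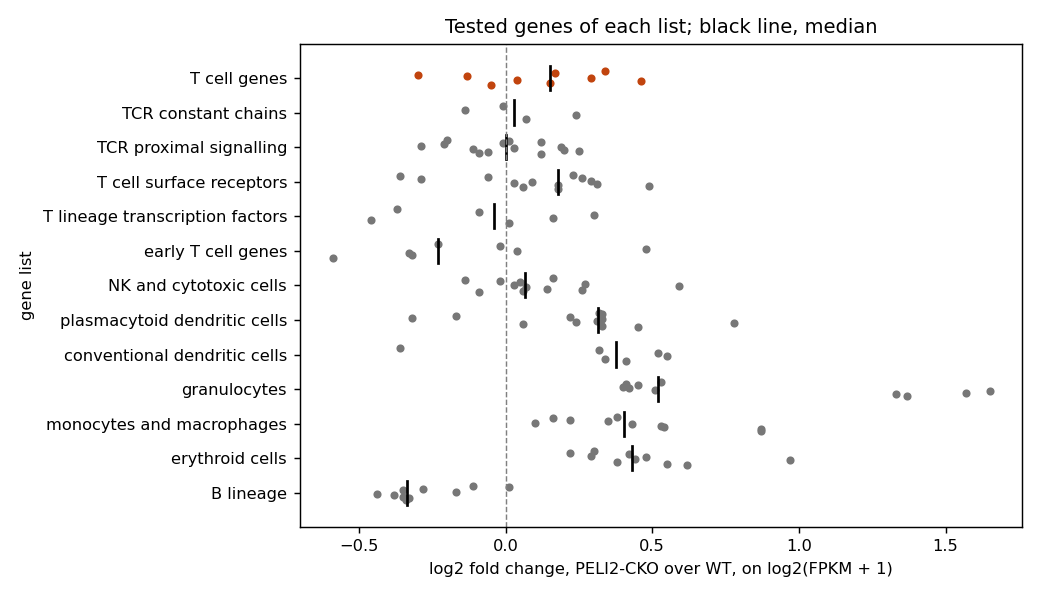
Log2 fold change, PELI2-CKO over WT, of each tested gene of the T cell genes (orange), of lists around the receptor and of marker lists of other cells, with a black line at the median of each list. The median is 0.15 for the T cell genes, 0.31 for plasmacytoid dendritic cells, 0.52 for granulocytes and -0.34 for the B lineage.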

How the data were processed

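The authors deposited 1 table of FPKM per gene and library, and no scaling across libraries is stated. The build GRCm38.p6 and, with their roles left unsaid, the tools RSEM 1.2.12, HISAT2 2.0.4, DESeq2 1.4.5 and Bowtie2 2.2.5 are listed in the submitters' processing notes. Per the labels' protocols, mRNA was taken with oligo(dT) beads and read from a single end with 50 bases. Strand is not stated, so antisense genes cannot be told apart. Of 27761 rows, 27725 had an ID in GENCODE M21 (GRCm38), 95.6% of them with identical coordinates, as for all 10 genes here.

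Depth was taken as the total at which FPKM times length is whole, within 0.03 reads, for values under 6 reads of genes with 1 transcript, which held for 99.3% to 99.5% of 3752 to 4152 genes per library. Read numbers of single genes assume the longest coding transcript. Genes with at least 1 FPKM in at least 3 libraries were tested with limma 3.58.1 in R 4.3.3 on log2(FPKM + 1), a scale that understates changes of low genes, with eBayes and a trend. The step was tested on simulated data, with planted changes larger than any that the T cell genes had here. That test does not bear on changes of their size. Exact permutation tests are given for Cd3e, which was outside the filter, and for Peli2, which passed it. No model for counts was applied to FPKM.

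The genes, the 5 lists around the receptor and the 7 marker lists were chosen with earlier results of these data known. Named were all 10 genes, Peli2, up to 4 genes of a list by smallest p, and 8 genes by likeness to the CD3 chains. Alternatives were other pseudocounts, filters and scalings, eBayes without a trend, a replicate block and each library left out. Bcl11b and Tcrg-C3 were not analysed here. Figures were drawn with matplotlib 3.10.9.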

Additional observations from a re-analysis of the deposited data

How the results depend on the processing

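None of the 9 tested genes passed under any setting tried (limma, adjusted p under 0.05). Of 131 log2 fold changes of these genes under other settings 126 kept their direction and side of the threshold. The other 5 turned in direction: Cd8a to -0.015 when rescaled to a common total, and within ranges without 1 library of -0.026 to 0.13 for Cd8a and -0.2 to 0.082 for Cd3d. Trac, outside the 9, ranged from -0.022 to 0.18 without 1 library. Without 1 library Cd4 ranged from 0.36 to 0.52 and Cd2 from -0.34 to -0.23.

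Over all genes, the count of higher calls was 1 with a filter of 5 FPKM and 2 to 16 without 1 library, with 16 without PELI2-CKO replicate 3. The count of lower calls was 2 without a trend in eBayes. The cause was not tested. With the replicate number as a block, 4 genes were called higher and 0 lower, with 0 of the 9, and adjusted p = 0.164 for both Cd4 and Cd2. The numbers were not taken as pairs in the main fit, since the labels state no pairs. Deviations of same-numbered libraries correlated at 0.10, 0.04 and 0.09, and those of different-numbered libraries from -0.11 to 0.00, so a weak pairing was not excluded. Rescaling to a common total moved the median of all genes by -0.07 (log2). At 12 to 24 reads per library, the counting intervals of the highest and the lowest library overlapped for Cd3e. Whether the groups differ beyond counting error was not tested.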

Other observations

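Variable segments of the receptor genes, a set chosen after the values were seen and not tested, were listed at low levels. Of 20 Trbv rows, segments of the beta chain, 11 were above 0 in all 6 libraries and 9 reached 1 FPKM in at least 1 library. Their summed FPKM was 11.0, 10.8 and 16.2 in the libraries labelled PELI2-CKO and 8.14, 8.80 and 10.5 in WT, of which Trbv13-2 had the highest mean, 2.07 FPKM. Of 50 Trav rows, segments of the alpha chain, 3 were above 0 in all libraries, and the sums were 5.56, 5.15 and 6.23 FPKM in the libraries labelled PELI2-CKO and 6.05, 6.04 and 6.49 FPKM in WT. PELI2-CKO replicate 3, the highest library for Trbc1 and Trbc2, also had the highest Trbv sum.

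The mean centred level of Cd3d, Cd3e and Cd3g stood at 0.04, -0.04 and 0.11 (log2) in the libraries labelled PELI2-CKO and at -0.25, -0.04 and 0.17 in WT. Over the 6 libraries, which share the 2 groups, Pearson's r of tested genes with this pattern was highest for Rpl36a-ps2 (0.998), Atg3 (0.987), Wfikkn1 (0.987), Nenf (0.983), Mphosph6 (0.982), Ggt5 (0.977), Cenpp (0.976) and Dcaf7 (0.974), none of them on the T cell lists. An r of 0.9 or more was reached by 127 of 12951 genes, 0.981%. Among T cell genes outside the pattern, r was 0.86 for Trbc2, 0.81 for Trac, 0.67 for Trbc1, 0.60 for Cd8a, 0.46 for Cd4, 0.36 for Cd8b1, 0.32 for Lck and -0.68 for Cd2. These values are descriptions of 6 libraries with few CD3 reads.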
